A study of Mus musculus with 12 samples.

Results

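The genes described are those of the TGF beta pathway core in the mouse: the ligand gene Tgfb1, the receptor genes Tgfbr1 and Tgfbr2, the SMAD genes Smad2, Smad3, Smad4 and Smad7, and the repressor genes Ski and Skil. These 9 genes were chosen by name for their role in the pathway and taken from the 51826 genes of the count table by matching their Ensembl identifiers to symbols. All 9 passed the filter on low counts, as did 15038 genes in all.

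TGF beta binds a pair of receptors. The type II receptor (Tgfbr2) holds the ligand and activates the type I receptor (Tgfbr1), which phosphorylates the transcription factors SMAD2 and SMAD3. These join SMAD4, enter the nucleus and switch target genes on or off, whereas SMAD7 blocks the receptor and SKI and SKIL (also called SnoN) repress transcription on SMAD-bound DNA. Smad7 and Skil are themselves well-known targets of the pathway and act as its feedback brakes. In the B lineage TGF beta is known for restraining the growth of precursors and for class switching to IgA.

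The samples are 12 lines of pro-/pre-B cells, precursors of B lymphocytes, grown from the bone marrow of 2 C57BL/6 mice whose age is not given in the sources used here. Marrow was cultured with interleukin 7 (IL7) for 7 days, and cells of each mouse were then transduced with a retroviral vector (pMIG) that was empty (EV, 3 lines per mouse) or carried BCR-ABL1 (3 lines per mouse), the fusion kinase of Philadelphia chromosome-positive leukemia. All lines had IL7 for the first 48 hours. The BCR-ABL1 lines were then selected by 1 week of growth without it and the EV lines, still given IL7, by their GFP in a cell sorter, so that BCR-ABL1, IL7 withdrawal and the way cells were selected cannot be told apart. Lines are named by mouse and letter, such as EV line 2C. The labels give 3 independent experiments on the cells of 2 animals, and p-values therefore measure the spread between lines more than between animals.

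Total RNA was sequenced on stranded libraries, and the authors deposited read counts per gene. Counts summed to between 34791011 and 66011225 per line, and the lowest count of any member in a line was 28, for Smad3 in EV line 2A. All 12 markers of B cell precursors passed the count filter, with a summed level in EV lines of 3178 to 5778 CPM (a gene's counts scaled to a library of fixed size, here by total counts), and of 3274 to 4317 CPM with BCR-ABL1. Of these, EV lines held 235 to 430 CPM of Il7r, against 139 to 183 CPM with BCR-ABL1, and 0.108 to 18.1 CPM of Dntt, against 31.5 to 173 CPM. Markers of other cells were low, but some moved with condition. Of 8 T and NK cell markers 3 passed the filter, and all 8 summed to 11.1 to 44.7 CPM across EV lines, against 0.669 to 4.61 CPM with BCR-ABL1. In EV lines most of it came from Trac, at 9.97 to 43.8 CPM. Of the defining markers Cd3e was at 0 in 10 lines, while Cd3d (0.234 to 0.604 CPM) and Cd3g (0.123 to 0.228 CPM) were present in all 6 EV lines and at most at 0.111 and 0.0163 CPM with BCR-ABL1. Klrb1c, an NK cell marker, was at 1.01 to 3.56 CPM with BCR-ABL1 and at 0.0310 to 0.0978 CPM with EV in mouse 1, but at 0.355 to 0.636 and 0.747 to 1.05 CPM in mouse 2. Of 5 erythroid markers 2 passed, with sums of 1.26 to 6.58 and 5.68 to 12.1 CPM, nearly all from Hbb-bt, while Hba-a1 was at 0 in all 12 lines. Of 5 megakaryocyte markers 1 passed, with sums of 1.93 to 3.28 and 0.840 to 1.73 CPM. Sums were at most 2.27 CPM for 10 stromal markers (0 passed), 7.64 CPM for 10 myeloid markers (1 passed) and 0.575 CPM for 5 mast cell and basophil markers (0 passed). The part of these markers in the results was not tested, and in bulk RNA fewer cells of a type and less RNA per cell cannot be told apart.

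Levels below are CPM scaled by TMM, which corrects library totals for composition. The conditions were compared by edgeR's glmTreat, which asks whether a change exceeds 1.5-fold, and a gene with an adjusted p under 0.05 over all tested genes is said to be called. By this test 0 of the 9 members were called, against 12.5% of all tested genes. DESeq2 and the likelihood ratio fit also called 0. Of the 15038 tested genes DESeq2 called 795 higher and 651 lower, and the likelihood ratio fit 1025 higher and 1003 lower. By glmTreat 1 member, Tgfbr2, had an unadjusted p under 0.05, as did 21% of all tested genes. Against no change in place of 1.5-fold, edgeR's quasi-likelihood test called Smad2 higher, where 22.5% of all tested genes were called higher, and Tgfb1, Tgfbr2, Smad7 and Skil lower, where 25.9% were called lower. The members' median log2 fold change was -0.33, and that of all tested genes was -0.024. The members were thus expressed in lines of both kinds, and the changes most of them had were small.

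**Figure D1:**
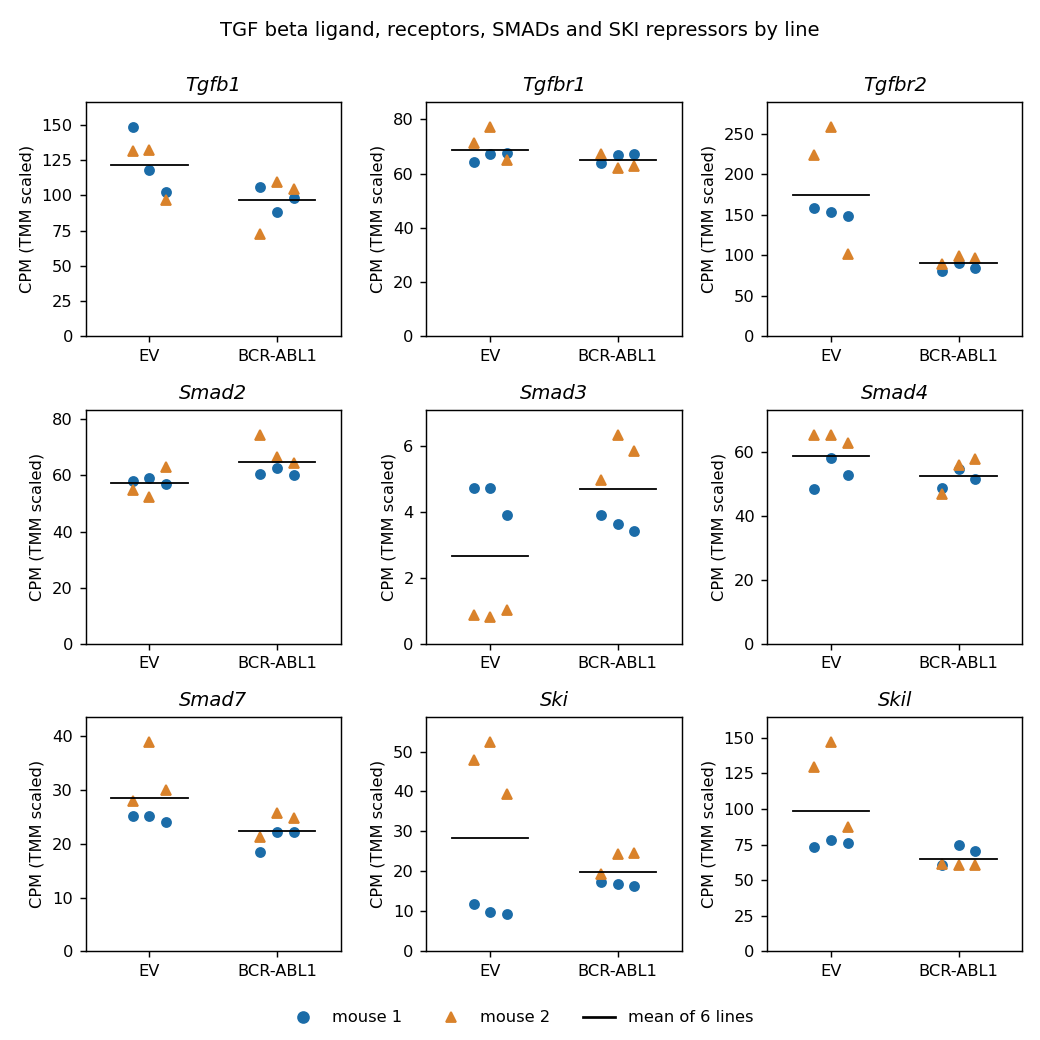
Level of each of the 9 members in every line, in CPM scaled by TMM, with circles for lines of mouse 1, triangles for lines of mouse 2 and a bar for the mean of 6 lines. Tgfbr2 is the member without overlap between EV and BCR-ABL1 lines, and Smad3 and Ski split the EV lines by mouse.

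Per kb of exon, which allows genes to be compared, Tgfb1 had the highest mean and Smad3 the lowest in both conditions. In EV lines the order of mean levels per kb was Tgfb1 (24.1 CPM per kb), Tgfbr2 (21.2), Smad4 (15.9), Tgfbr1 (10.5), Skil (10.2), Smad2 (6.53), Smad7 (6.31), Ski (5.11) and Smad3 (0.482). Only the steps from Smad4 to Tgfbr1, from Skil to Smad2 and from Ski to Smad3 separated neighbours whose ranges over the 6 EV lines did not overlap. In BCR-ABL1 lines the order was Tgfb1 (19.1 CPM per kb), Smad4 (14.2), Tgfbr2 (10.96), Tgfbr1 (9.94), Smad2 (7.38), Skil (6.68), Smad7 (4.97), Ski (3.56) and Smad3 (0.844). Here the ranges overlapped between Tgfb1 and Smad4, Tgfbr2 and Tgfbr1, Smad2 and Skil, and Smad7 and Ski. Of the receptor-activated SMADs, Smad2 was therefore far above Smad3 per kb in every line.

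**Figure D2:**
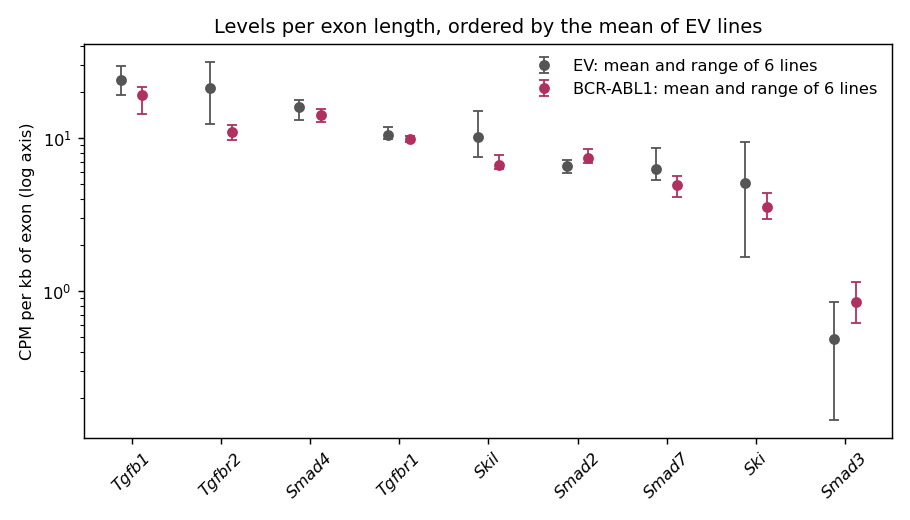
Mean level per kb of merged exon length of each member on a log axis, with bars from the lowest to the highest of 6 lines, for EV and BCR-ABL1 lines. Smad3 lies below every other member in both conditions, at 0.482 and 0.844 CPM per kb.

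The ligand and its receptors are given first. Tgfb1 (ENSMUSG00000002603, chromosome 7, 25687002 to 25705077, all positions on GRCm38) encodes the ligand made by most blood cells. Its EV lines had 96.8 to 149 CPM with a mean of 122 ± 19.7 (SD, n = 6), and its BCR-ABL1 lines 72.4 to 110 CPM with a mean of 96.5 ± 14.0 (SD, n = 6). The ranges overlapped, and the log2 fold change was -0.33 (standard error 0.13, adjusted p = 1 by glmTreat). By a two-sided exact permutation test of mean log2 CPM over all labelings, 5 of the 9 members had an unadjusted p under 0.05, beside 56.1% of all tested genes. For Tgfb1 this p was 0.0368, which rose to between 0.0584 and 0.0758 without EV line 1A, 1B, 2A or 2B or BCR-ABL1 line 1B or 2A.

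Tgfbr1 (ENSMUSG00000007613, chromosome 4, 47353222 to 47414931), the type I receptor gene, was at nearly the same level in all lines. EV lines spanned 64.2 to 77.2 CPM, BCR-ABL1 lines 61.9 to 67.3 CPM, with means of 68.7 ± 4.85 and 65.0 ± 2.34 (SD, n = 6 each). The log2 fold change was -0.081 (standard error 0.05, adjusted p = 1; exact permutation p = 0.104). On total counts in place of TMM the difference was -0.14 with an exact permutation p = 0.00433, and without EV line 1A it was -0.10 with an exact p = 0.0433.

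Tgfbr2 (ENSMUSG00000032440, chromosome 9, 116084293 to 116175360), the type II receptor gene, separated the conditions. The EV lines of mouse 1 had 158, 153 and 148 CPM and those of mouse 2 had 224, 258 and 102 CPM. The BCR-ABL1 lines had 80.1, 89.9 and 83.8 CPM in mouse 1 and 89.0, 99.4 and 96.4 CPM in mouse 2. Every BCR-ABL1 line was thus below every EV line, with EV line 2C closest, and Tgfbr2 was the 1 member whose conditions did not overlap, as they did not for 25.6% of all tested genes. The means were 174 ± 56.9 CPM in EV lines and 89.8 ± 7.30 CPM in BCR-ABL1 lines (SD, n = 6 each), which is a change of -0.95 on the log2 scale (standard error 0.20). The exact permutation p was 0.00216, the smallest that 6 lines against 6 allow, but the change did not exceed 1.5-fold at the threshold (adjusted p = 0.0673 by glmTreat). Without EV line 2C, Tgfbr2 was called lower (log2 fold change -1.07, adjusted p = 0.00708), when 18.2% of all genes tested were called in either direction. With mouse as replicate block the adjusted p was 0.0556, where 14.7% of genes and 0 members were called. Over 22 alternatives the adjusted p ranged from 0.000670 to 0.462, and the log2 fold change from -1.07 to -0.81.

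The balance of the receptors can be read from the ratio of Tgfbr1 to Tgfbr2 counts within a library, which needs no scaling between libraries, and it differed between conditions. EV lines had ratios of 0.299 to 0.639 (median 0.422) and BCR-ABL1 lines of 0.623 to 0.8004 (median 0.749). The highest EV value, that of line 2C, lay just above the lowest BCR-ABL1 value. The mean log2 ratio was higher in BCR-ABL1 lines by 0.81 (standard error 0.17, two-sided exact permutation p = 0.00433, and p = 0.01 with lines exchanged only within a mouse). The difference was 0.85 in mouse 1 and 0.78 in mouse 2. Within a mouse, 3 lines against 3 cannot go below an exact p of 0.1.

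The activated SMADs and their partner followed different patterns. Smad2 (ENSMUSG00000024563, chromosome 18, 76241580 to 76310963) spanned 52.3 to 63.1 CPM across EV lines, against 60.0 to 74.6 CPM with BCR-ABL1, with means of 57.3 ± 3.71 and 64.8 ± 5.36 (SD, n = 6 each). The ranges overlapped, and the log2 fold change was 0.18 (standard error 0.06, adjusted p = 1; exact permutation p = 0.0130, or 0.184 on total counts). Smad4 (ENSMUSG00000024515, chromosome 18, 73639009 to 73703780), the partner of both activated SMADs, spanned 48.6 to 65.5 CPM across EV lines, against 47.1 to 58.0 CPM with BCR-ABL1. The ranges overlapped, and the log2 difference by edgeR was -0.16 (standard error 0.09, adjusted p = 1; exact permutation p = 0.0974, or 0.0173 on total counts and 0.0260 without EV line 1A). For these genes the exact test depended on the scaling of libraries, and the size of the difference was small under either scaling. Smad7 (ENSMUSG00000025880, chromosome 18, 75367529 to 75395935), the inhibitory SMAD, spanned 24.0 to 38.9 CPM across EV lines, against 18.5 to 25.7 CPM with BCR-ABL1, ranges that overlapped in part. The log2 difference by edgeR was -0.35 (standard error 0.13, adjusted p = 1 by glmTreat; exact permutation p = 0.0173).

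Smad3 (ENSMUSG00000032402, chromosome 9, 63646767 to 63757994) was low in all lines and differed most between the mice. Its EV lines had 4.72, 4.71 and 3.92 CPM in mouse 1 and 0.859, 0.795 and 1.03 CPM in mouse 2. Its BCR-ABL1 lines had 3.90, 3.62 and 3.43 CPM in mouse 1 and 4.95, 6.34 and 5.83 CPM in mouse 2. The EV lines of mouse 2 stood below all 9 other lines, and there Smad3 counts were 28, 40 and 57 per line. The log2 fold change was -0.27 (standard error 0.10, adjusted p = 1) in mouse 1 and 2.68 (standard error 0.15, adjusted p = 0.00243 by glmTreat) in mouse 2, where 6.64% of all genes tested in that mouse were called. Smad3 was the 1 member called in mouse 2 alone, and Tgfbr2, which was lower (log2 fold change -0.84, adjusted p = 0.000670), the 1 called in mouse 1 alone, where 28.5% of all genes were called. Over all lines Smad3 was not called (log2 fold change 0.80, standard error 0.53, adjusted p = 0.629, or 0.293 with mouse as replicate block). The difference of mean log2 CPM, from whose spread the standard error comes, was 1.17. Its exact permutation p was 0.0823 over all lines and 0.0325, 0.0325 and 0.0476 without EV lines 1A, 1B and 1C.

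The SKI repressors were also unlike in the EV lines of the mice. Ski (ENSMUSG00000029050, chromosome 4, 155154075 to 155222592) had 11.7, 9.76 and 9.28 CPM in the EV lines of mouse 1 and 47.9, 52.3 and 39.4 CPM in those of mouse 2. Its BCR-ABL1 lines lay between these, with 17.4, 16.8 and 16.4 CPM in mouse 1 and 19.2, 24.3 and 24.5 CPM in mouse 2. The log2 fold change was thus positive in mouse 1, at 0.73 (standard error 0.11, adjusted p = 0.0761), and negative in mouse 2, at -1.02 (standard error 0.17, adjusted p = 0.0524), and neither was beyond 1.5-fold at the threshold. Over all lines it was -0.52 by edgeR's fit of mean counts (standard error 0.50, adjusted p = 0.979), and the difference of mean log2 CPM was -0.16 (exact permutation p = 0.755). Without EV line 2A, 2B or 2C the latter was 0.072, 0.097 and 0.015, so that this difference has no stable direction. By edgeR's fit the log2 fold change stayed negative with each line left out, between -0.70 and -0.26.

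Skil (ENSMUSG00000027660, chromosome 3, 31095058 to 31122577) had 73.1, 78.0 and 76.4 CPM in the EV lines of mouse 1 and 129, 147 and 87.0 CPM in those of mouse 2. Its BCR-ABL1 lines had 60.5, 75.0 and 70.2 CPM in mouse 1 and 61.1, 60.8 and 60.9 CPM in mouse 2. Of the 6 BCR-ABL1 lines 1, line 1B, lay within the range of EV lines, and the other 5 were below every EV line. Skil differed by -0.60 on the log2 scale (standard error 0.18, adjusted p = 0.684 by glmTreat; exact permutation p = 0.00433), with -0.14 in mouse 1 and -0.98 in mouse 2.

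For 3 of the 9 members the change from EV to BCR-ABL1 lines differed between the mice, against 16.9% of all tested genes. This was tested by edgeR's interaction of mouse and condition. The change in mouse 2 minus that in mouse 1, on the log2 scale, was 2.95 for Smad3 (adjusted p = 1.52e-05) and -1.75 for Ski (adjusted p = 0.000111). For Skil it was -0.85 (adjusted p = 0.0224). The call of Skil was lost without any of EV lines 1A, 1C and 2A or BCR-ABL1 lines 1B, 2B and 2C, with adjusted p between 0.0501 and 0.0612. Without EV line 2C, Tgfbr2 (-0.49, adjusted p = 0.00474) and Smad2 (0.28, adjusted p = 0.0388) were called as well. The gap between the mice was wider in EV than in BCR-ABL1 lines for 7 of 9 members, where 66.1% of all tested genes had this pattern. For Smad3 the mean log2 CPM of mouse 2 minus mouse 1 was -2.27 in EV lines and 0.63 in BCR-ABL1 lines, and for Ski it was 2.17 and 0.42. The spread between lines, as SD of log2 CPM, was larger in EV lines for 8 of 9 members, with Smad2 the exception, and for 80.7% of all tested genes.

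**Figure D3:**
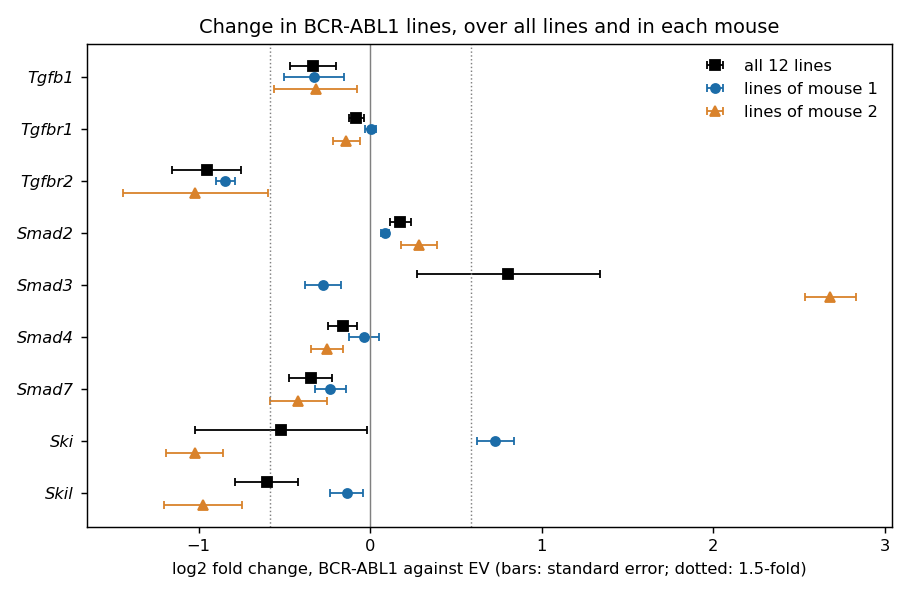
Log2 fold change of BCR-ABL1 against EV lines for each member, over all 12 lines and in the 6 lines of each mouse, with standard errors taken over lines and dotted lines at 1.5-fold. Smad3 lies at -0.27 in mouse 1 and 2.68 in mouse 2, and Ski at 0.73 and -1.02.

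Within a library Smad3 made up a small part of the activated SMAD counts. The ratio of Smad3 to Smad2 counts was 0.0689 to 0.0816 in EV lines of mouse 1 and 0.0152 to 0.0163 in those of mouse 2. In BCR-ABL1 lines it was 0.0572 to 0.0643 in mouse 1 and 0.0664 to 0.0954 in mouse 2. The mean log2 ratio was higher in BCR-ABL1 lines by 1.02 (standard error 0.53, two-sided exact permutation p = 0.134). With lines exchanged only within a mouse the exact permutation p was 0.1. The difference was -0.36 in mouse 1 and 2.40 in mouse 2, so that the value over all lines joins opposite directions. The ratio of Ski to Skil counts was 0.121 to 0.161 in EV lines of mouse 1 and 0.356 to 0.452 in those of mouse 2, whereas BCR-ABL1 lines had 0.224 to 0.287 and 0.315 to 0.403. Its mean log2 ratio differed by 0.40 (standard error 0.38, exact permutation p = 0.310), with 0.87 in mouse 1 and -0.079 in mouse 2. Over all lines the exact test passed the threshold for 1 of the 3 ratios, that of Tgfbr1 to Tgfbr2. Within a mouse the conditions did not overlap for Smad3 to Smad2 in either mouse, nor for Tgfbr1 to Tgfbr2 and Ski to Skil in mouse 1. With 3 lines against 3 the exact p cannot go below 0.1, and how often other genes lack overlap within a mouse was not tested.

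**Figure D4:**
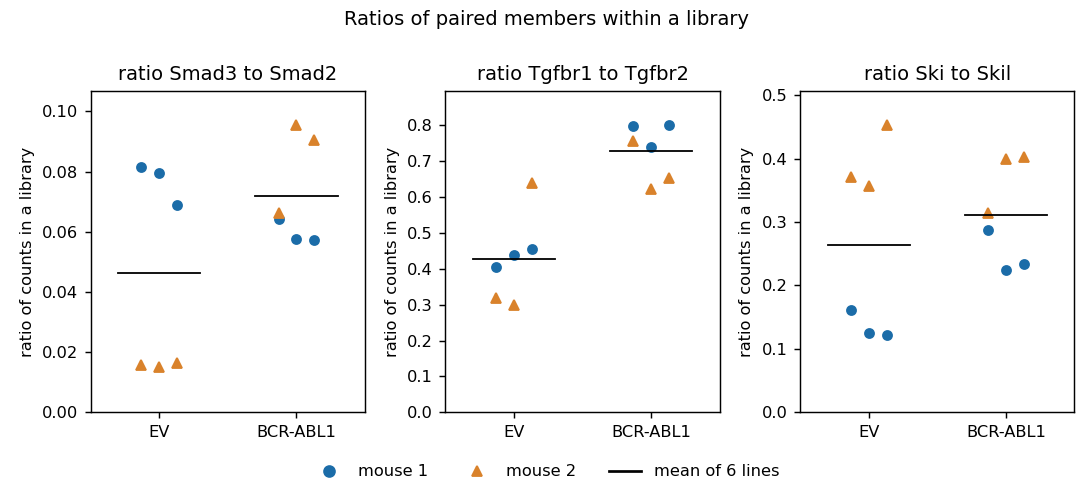
Ratio of the counts of 2 members within each library for 3 pairs, with circles for mouse 1, triangles for mouse 2 and bars for the mean of 6 lines. The Tgfbr1 to Tgfbr2 ratio is 0.299 to 0.639 in EV lines and 0.623 to 0.8004 in BCR-ABL1 lines.

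Upstream sequences are shown for Tgfbr2, the member whose conditions did not overlap, and for Smad3 and Ski, the members that differed most between the mice. They are RefSeq promoter windows on GRCm38.p6, read 5′ to 3′ on the minus strand and ending just before the start of transcription. Capitals mark AGAC or its complement GTCT, the short element that SMAD3 and SMAD4 contact, searched on both strands. The Tgfbr2 window is chr9:116175364-116175613, the Smad3 window chr9:63757995-63758244 and the Ski window, shortened to 193 bases by its annotated start, chr4:155222593-155222785.
Tgfbr2: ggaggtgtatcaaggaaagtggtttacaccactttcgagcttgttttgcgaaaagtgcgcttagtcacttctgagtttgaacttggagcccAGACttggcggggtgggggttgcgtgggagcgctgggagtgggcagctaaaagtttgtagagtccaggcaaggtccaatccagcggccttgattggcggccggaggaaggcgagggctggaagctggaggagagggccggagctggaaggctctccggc
Smad3: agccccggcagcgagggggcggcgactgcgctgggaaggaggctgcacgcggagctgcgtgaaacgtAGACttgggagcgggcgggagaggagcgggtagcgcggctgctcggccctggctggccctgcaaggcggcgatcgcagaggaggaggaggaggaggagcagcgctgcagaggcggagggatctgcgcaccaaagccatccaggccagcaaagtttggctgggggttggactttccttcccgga
Ski: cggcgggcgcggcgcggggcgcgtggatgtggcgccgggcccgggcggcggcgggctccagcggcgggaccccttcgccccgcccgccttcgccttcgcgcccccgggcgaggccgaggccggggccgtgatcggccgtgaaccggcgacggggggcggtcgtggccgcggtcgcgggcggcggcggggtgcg

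The Tgfbr2 and Smad3 windows held the AGAC element once each and the Ski window did not hold it, whereas 82.9% of 32851 promoter windows of 250 bases and 75.6% of those cut to 193 bases did. The GC box GGGCGG, on either strand and with overlapping matches counted, occurred 0 times in the Tgfbr2 window, 2 times in that of Smad3 and 4 times in that of Ski, and in 32.7% of windows of 250 and 23.5% of windows of 193 bases. The E-box pattern CANNTG, bound by E proteins of the B lineage, was in none of the 3 windows and in 66.2% and 57.9% of all windows of these lengths. GC content was 58.4% for Tgfbr2, 69.2% for Smad3 and 86.5% for Ski. Such matches describe the letters in these windows and show no binding.

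Other genes of the TGF beta superfamily pathway were taken from 6 lists by role, 102 genes without the members, of which 70 passed the count filter. By glmTreat 9 of the 70 were called higher, against 5.99% of all tested genes, and 2 lower, against 6.49%. The other 59 were not called. Of the 70, 17 were under the count filter's cutoff in 1 or more EV lines and 4 in 1 or more BCR-ABL1 lines, so that genes low in EV lines could enter through the BCR-ABL1 lines where they are high, and a higher share than the background is not read as a property of these lists. A replicate block for mouse gave 12 higher and 3 lower, where 14.7% of all tested genes were called in either direction. Of these 11 called genes 4 were ligand or activation genes, 4 were receptors, 3 were targets and 1 was a cofactor, with Bambi in 2 lists.

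Of 14 other receptor genes 9 were tested, 4 were called higher, 0 lower and 5 not called. Of the 9, 5 were under the filter's cutoff in 1 or more EV lines. DESeq2 called the same numbers. With mouse as replicate block 6 were called higher, with the activin receptor genes Acvr1b (adjusted p = 0.00967, and 0.0857 without the block) and Acvr2a (0.0205 and 0.0533) added. Acvr1c, a type I receptor for activin-like ligands, was at most at 0.307 CPM in an EV line, against 5.22 to 8.42 CPM with BCR-ABL1 (adjusted p = 0.000357). Acvr1, a type I receptor for BMPs and activin, had 0 counts in 4 EV lines and at most 0.767 CPM in the others, against 2.48 to 5.45 CPM in BCR-ABL1 lines (adjusted p = 0.00997). Bmpr2, the BMP type II receptor gene, rose by 2.58 on the log2 scale (standard error 0.52, adjusted p = 0.0104), from 0.471 to 4.33 CPM in EV lines to 7.31 to 10.7 CPM in BCR-ABL1 lines. Without EV line 2C, which had 4.33 CPM against at most 1.75 CPM in the other EV lines, the rise of Bmpr2 was 3.33. Bambi, which encodes a receptor-like inhibitor without a kinase domain, was also higher (adjusted p = 0.00825), with 0.0144 to 0.338 CPM across EV lines. Its BCR-ABL1 lines had 0.407 to 0.606 CPM in mouse 1 and 2.39 to 2.87 CPM in mouse 2. In the lines of mouse 2 alone Acvr1 and Bmpr2 were not called, with adjusted p of 0.165 and 0.101.

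Of 22 other ligand, latency and activator genes 10 were tested, of which 2 were called higher, 2 lower and 6 not. Lrrc32, which encodes GARP, a protein that docks latent TGF beta on the cell surface, had at most 3 counts in an EV line, 6 over all of them, and 1.25 to 3.57 CPM in BCR-ABL1 lines (adjusted p = 5.87e-06). Ltbp2, of the family of latent TGF beta binding proteins, was at most at 0.245 CPM in an EV line, against 1.86 to 5.26 CPM with BCR-ABL1 (adjusted p = 0.000160). Itgav, the integrin alpha V chain that takes part in activating latent TGF beta, fell by 1.34 on the log2 scale (standard error 0.27, adjusted p = 0.0106), from 57.3 to 157 CPM to 28.0 to 55.4 CPM. Gdf11, a ligand that signals through SMAD2 and SMAD3, fell by 1.10 (standard error 0.19, adjusted p = 0.0168), but was not called by DESeq2 (0.0792) or with line number as replicate block (0.0518). In the lines of mouse 2 alone Itgav and Gdf11 were not called, with adjusted p of 0.239 and 0.0566.

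Of 22 adaptor, ubiquitin ligase and phosphatase genes 20 were tested and 0 were called by glmTreat or by DESeq2, with 2 at an unadjusted p under 0.05 by glmTreat and a median log2 fold change of -0.063. Against no change 7 of the 20 were called higher and 6 lower, beside 22.5% and 25.9% of all tested genes. With mouse as replicate block 1 of these, Pmepa1, was higher and 1, Usp11, was lower. Of 19 cofactor genes 18 were tested and 1, Tgif2, was called higher, by 1.89 on the log2 scale (standard error 0.45, adjusted p = 0.0267). Tgif2 encodes a homeodomain corepressor of SMADs. Its call was lost without EV line 1A, 1B or 1C (adjusted p of 0.0531 to 0.0577) and in the lines of mouse 2 alone (0.371). EV line 2C had 8.73 CPM of Tgif2, the other EV lines 1.01 to 3.35 CPM, and without it the log2 fold change was 2.48. Of the 4 other SMAD genes only Smad5, of the BMP branch, was tested, at 46.7 to 110 CPM across EV lines and 82.4 to 88.3 CPM with BCR-ABL1 (log2 difference 0.056, standard error 0.17, adjusted p = 1; unadjusted p under 0.05 for 0 genes, and 0 called by DESeq2). Smad1, Smad6 and Smad9 had at most 10, 7 and 4 counts in any line.

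The list of textbook TGF beta targets held 24 genes that are not members, of which 14 were tested, 3 were called higher, 0 lower and 11 not called. DESeq2 also called 3 and 0. Of the 14, 8 were under the filter's cutoff in 1 or more EV lines. The 3 called over all lines were Bambi, given above, Cdkn2b and Id1. Cdkn2b, the gene of the cell cycle inhibitor p15, had 0 counts in 4 EV lines and at most 5 in the others, and was at 0.780 to 1.25 CPM in BCR-ABL1 lines (adjusted p = 0.000394). Id1, an inhibitor of E proteins that responds mainly to BMP signals, rose by 2.18 on the log2 scale (standard error 0.56, adjusted p = 0.0295). Its call was lost without EV line 1B or 1C or BCR-ABL1 line 2A, 2B or 2C (adjusted p of 0.0568 to 0.0616). The feedback targets among the members, Smad7 and Skil, had log2 fold changes of -0.35 and -0.60 and were not called. Ccn2 and Tgfbi, which are used as readouts of TGF beta in other cell types, had at most 7 counts each in any line and were not tested.

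**Figure D5:**
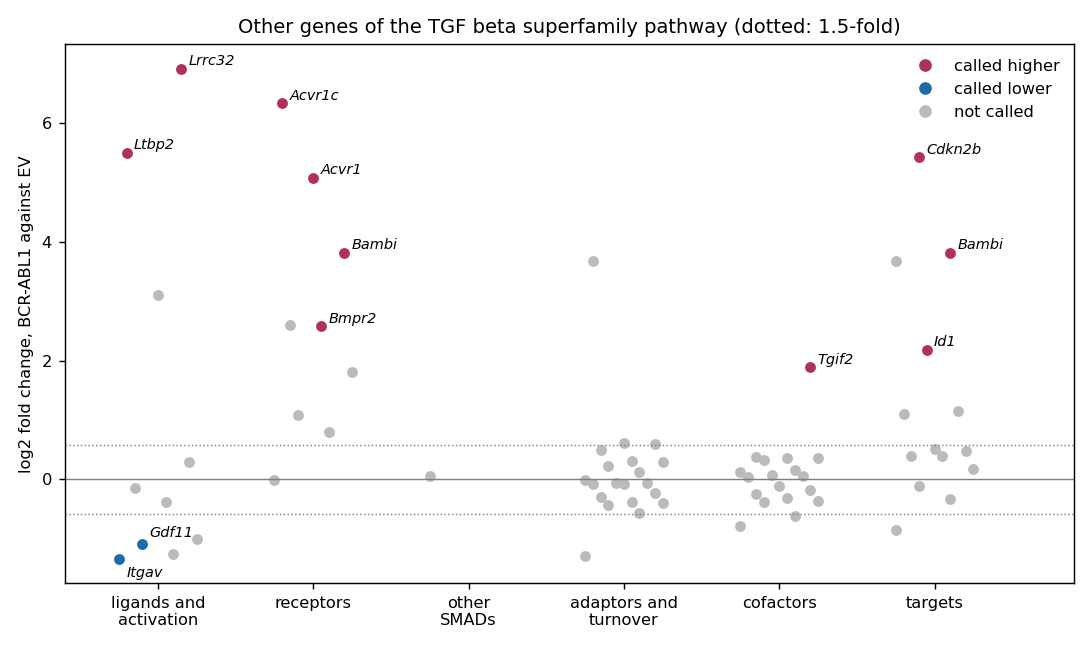
Log2 fold change of BCR-ABL1 against EV lines for the 70 tested pathway genes that are not members, by list, with called genes named and in colour and dotted lines at 1.5-fold. The 4 receptor genes called higher have fitted values between 2.58 and 6.33, and Bambi and Pmepa1 are drawn in 2 lists each.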

How the data were processed

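RNA of 12 lines was sequenced, 6 EV and 6 BCR-ABL1, and the labels gave condition, mouse and letter of each line. The authors deposited raw read counts per gene, not normalized and not pooled. Their processing notes name the build GRCm38 and FastQC 0.11.5, Trimmomatic 0.36, TopHat2 2.1.1, Bowtie2 2.3.2, featureCounts 1.5.3, R 3.6.1 and edgeR 3.18.1, while the strand setting and the annotation release are not given in the sources used here.

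GENCODE M21 (GRCm38) gave symbols, positions and merged exon lengths, and matched 51633 of 51826 identifiers. No exon of a member overlapped an exon of another gene there. Counts were filtered with filterByExpr, scaled by TMM and fitted with glmQLFit and glmTreat (1.5-fold) in edgeR 4.0.16 on R 4.3.3, with Benjamini-Hochberg adjustment over all tested genes and a threshold of 0.05. The study names glmTreat at this fold change with a likelihood ratio fit, run here as an alternative, as was DESeq2 1.42.0. Standard errors come from the spread of log2 CPM (prior count 2) between lines. Up to 3 counts per line were read as the floor. It covers counting error alone, because the reads carry no molecular identifiers. The fits were tested on simulated data. Figures were drawn with matplotlib 3.10.9.

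Equal first digits of line names mean the same mouse by the labels. Deviations from the mean of a condition had correlations of 0.0853 to 0.240 when an EV and a BCR-ABL1 line shared the mouse, and of -0.203 to -0.0636 when they did not. Replicate lines differed beyond sampling noise, with a chi-square per gene of at least 9.96.

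Members, lists and tests were chosen with earlier results of these data known. Named genes are the 9 members and, per list, up to 4 called genes with the largest rise and 4 with the largest fall. No member was called, so no genes of like pattern are named. Other genes were chosen after their values were seen, namely Acvr1b, Acvr2a, Pmepa1, Usp11, Smad5 and those in the closing section, as were untested genes given with their counts.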

Additional observations from a re-analysis of the deposited data

Results flagged for a closer look

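A difference between the mice in the change from EV to BCR-ABL1 lines was called, by edgeR's interaction of mouse and condition, for 3 members. Among the named receptor genes it was called for Acvr1c and Bmpr2. The change in mouse 2 minus that in mouse 1, on the log2 scale, was 2.95 for Smad3, -1.75 for Ski and -0.85 for Skil. It was -3.74 for Acvr1c (adjusted p = 0.0497) and -1.998 for Bmpr2 (adjusted p = 0.0267). EV lines of mouse 1 had at most 0.0376 CPM of Acvr1c and 0.471 to 0.505 CPM of Bmpr2, and those of mouse 2 had 0.0180 to 0.307 and 1.10 to 4.33 CPM. Acvr1c had 24 counts over all EV lines and 0 in 2 of them. The size and the call of its interaction thus rest on few EV counts.

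A line far from the others of its group was found in 3 of 46 groups of 6 lines tested, where chance gives about 1 in 20. The gap to the nearest line made up 0.824 of the range of log2 CPM for Itgav in BCR-ABL1 line 2A (28.0 CPM, against 49.1 to 55.4 CPM in the others). It made up 0.689 for Acvr1 in EV line 2A (0.767 CPM) and 0.758 for Cdkn2b in EV line 2A (0.153 CPM). EV line 2A also had the highest sum of stromal markers, 2.27 CPM, and the lowest total count. Without EV line 2A the log2 fold change was 8.25 for Acvr1 and 7.39 for Cdkn2b, instead of 5.08 and 5.43, fitted values that rest on few EV counts. Without BCR-ABL1 line 2A that of Itgav was -1.23 instead of -1.34.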

How the results depend on the processing

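With mouse as replicate block 0 members were called, 12 pathway genes were higher and 3 lower, and 1126 genes in all were higher and 1080 lower. The log2 fold change of Smad3 became 1.16 and that of Ski -0.16. With line number as replicate block, and with DESeq2, 1 pathway gene was lower instead of 2. Against no change 5 members and 22 higher and 14 lower pathway genes were called, with 3389 higher and 3897 lower genes in all instead of 901 and 976. Mouse 1 lines alone gave 1 member, 18 and 5 pathway genes and 2512 and 1877 genes in all. Mouse 2 lines alone gave 1 member, 8 higher and 0 lower pathway genes, and 614 higher and 408 lower genes in all. Leaving out each line in turn gave 0 to 1 members, 7 to 11 higher and 2 to 4 lower pathway genes, 807 to 1353 higher and 802 to 1434 lower genes in all, 2 to 5 members with an interaction and 4 to 7 members with an exact p under 0.05, where all lines gave 5. The upper ends for called members, lower pathway genes, interactions and all genes came without EV line 2C, and the 7 without EV line 1A. Lines of 1 mouse alone, which cannot pass the exact test, gave ratio differences of -0.36 and 2.40 for Smad3 to Smad2, 0.85 and 0.78 for Tgfbr1 to Tgfbr2, and 0.87 and -0.079 for Ski to Skil. Omissions gave 0.78 to 1.27, 0.72 to 0.94 and 0.21 to 0.59.

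In mouse 1 alone the log2 fold changes of Tgfbr1 (0.0016), Smad3 (-0.27) and Ski (0.73) turned direction. Leaving out a line turned the interaction of Tgfb1 (-0.14 to 0.16) and Tgfbr2 (-0.49 to 0.078) and the exact test difference of Ski (-0.40 to 0.097), none of which was called over all lines. The cause was not tested. For the other members and the 11 named pathway genes the direction held in the settings run. Counts were low for Smad3 in EV lines of mouse 2, and its difference of mean log2 CPM was 1.19 with a prior count of 0.5. The fitted fold changes of Lrrc32, Ltbp2, Acvr1, Acvr1c, Bambi and Cdkn2b rest on few EV counts. Their dependence on depth and on the prior count was not tested.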

Other observations

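Some pathway genes outside the named ones varied widely among the EV lines, and were chosen after their values were seen. Tgfb3, a ligand of the same receptors as Tgfb1, had 1.01 to 1.60 CPM in EV lines of mouse 1, 76.0, 19.6 and 0.270 CPM in those of mouse 2, and 104 to 214 CPM in BCR-ABL1 lines. Its conditions did not overlap, but the spread between EV lines was wide and Tgfb3 was not called (log2 fold change 3.11, standard error 1.22, adjusted p = 0.124 by edgeR's glmTreat). Its change from EV to BCR-ABL1 lines differed between the mice by edgeR's interaction (-5.32 on the log2 scale, adjusted p = 0.0332).

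Eng, a co-receptor for TGF beta and BMPs, had at most 0.0921 CPM in EV lines of mouse 1, 2.18 to 17.2 CPM in those of mouse 2 and 15.3 to 24.9 CPM in BCR-ABL1 lines. Bmpr1a, a BMP type I receptor gene, had 1.52 to 2.04 CPM in EV lines of mouse 1, 42.3 to 91.8 CPM in those of mouse 2 and 47.8 to 66.2 CPM in BCR-ABL1 lines. Pmepa1, a TGF beta target whose product takes SMADs from the receptor, had 0 counts in EV lines of mouse 1, 0.497 to 2.74 CPM in those of mouse 2 and 4.41 to 13.0 CPM in BCR-ABL1 lines. The interaction of mouse and condition was called for Eng, Bmpr1a and Pmepa1 (adjusted p of 0.000581, 1.69e-06 and 0.00504), and for 22 of the 70 tested pathway genes in all, beside 16.9% of all tested genes. Runx3, a SMAD cofactor, ran the other way between the mice, with 9.44 to 13.6 CPM in EV lines of mouse 1, 0.144 to 2.09 CPM in those of mouse 2 and 2.73 to 8.47 CPM with BCR-ABL1 (interaction 4.58 on the log2 scale, adjusted p = 0.00282 by edgeR). Thbs1, whose product can activate latent TGF beta, did not pass the count filter, although EV line 2A had 1404 counts (40.4 CPM) and the next line 1196.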
